A study of Mus musculus with 5 samples.

Results

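The 9 genes described here encode the core machinery of mRNA decapping and 5' to 3' decay: Dcp2, Dcp1a, Edc3, Edc4, Ddx6, Lsm14a, Patl1, Lsm1 and Xrn1. They were chosen by name and function, and all 9 were found among the 18349 genes listed with an mRNA level. The data come from MEL cells, a mouse erythroleukemia line, with 3 samples of PABPC1 CLIP-seq and 2 samples of mRNA-seq on poly(A) RNA, and the labels name no treatment or genotype. For CLIP-seq the cells were irradiated with ultraviolet light at 400 mJ/cm2, which joins a protein covalently to RNA in contact with it, the lysate was cut with RNase One, and RNA attached to PABPC1 was recovered with an antibody and sequenced. The authors merged the samples into 1 peak list, 1 list of deletion sites and 1 RPKM value a gene (reads scaled by gene length and library size), so no value has a replicate error and nothing below is a test between conditions.

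Most mRNAs are first shortened at their poly(A) tail, the stretch that the cytoplasmic poly(A) binding protein PABPC1 coats. The 5' cap is then removed by Dcp2 with the help of activating proteins, and the exposed body is digested from the 5' end by Xrn1. These proteins gather in cytoplasmic granules called P-bodies, and several of them also hold back translation.

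The peak list held 90337 peaks with a median height of 9 tags, and the deletion list held 11907 single bases. Peak height is the authors' score for a peak and was read as a number of tags. At each of the 13 deletion sites of the 9 genes the tags covering the base did not exceed the height of the peak around it. Of 10 erythroid markers, 9 had an RPKM of at least 1, with Klf1, an erythroid transcription factor, at 428 and Slc4a1, the red cell anion exchanger, at 0.122. None of the 5 listed markers of other blood cells reached 1. Of 6 fibroblast markers 3 were listed, with Thy1 at 65.3, Pdgfrb at 2.60 and Col1a1 at 0.873 RPKM. The growth protocol also mentions a fibroblast line, NIH-3T3, of which no sample was analysed here.

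All 9 genes carried PABPC1 peaks, and their summed exonic peak height ranged from 94 tags for Dcp1a to 1155 tags for Ddx6. An exonic peak was found for 9 of 9 genes, against 87% of the 12331 genes with an RPKM of at least 1 and 99.5% of the 6430 protein-coding genes with an RPKM of 10 to 150, the range that holds all 9. At least 10 exonic peaks were found on 6 of the 9, against 21.5% of the 12331 genes and 32.5% of the 6430. The tallest exonic peak reached 50 tags on 8 of the 9, all but Dcp1a, against 55.6% and 78.7%. The 9 transcripts were long: their median exonic length was 5.58 kb, against 3.09 kb for the 10731 of those 12331 genes that had an exonic peak.

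**Figure D1:**
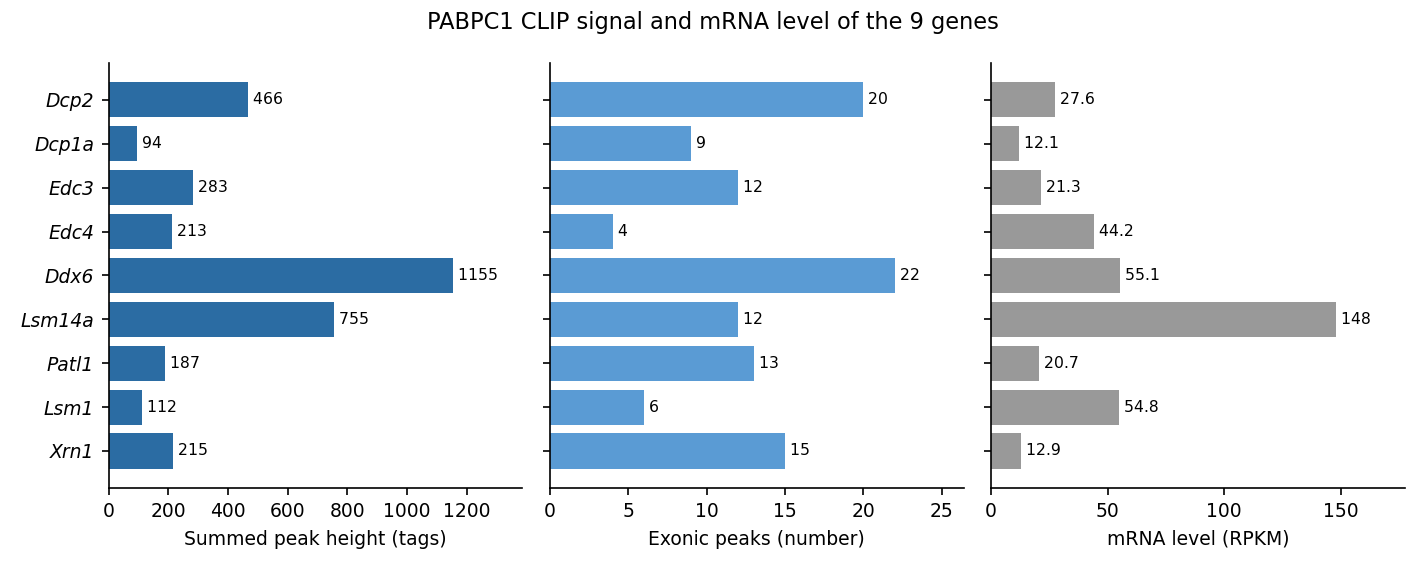
Bars show, for each of the 9 genes, the summed height of its exonic PABPC1 peaks in tags, the number of exonic peaks and the pooled mRNA level in RPKM. Ddx6 has the most peaks (22) and the greatest summed height (1155 tags), and Lsm14a the highest mRNA level (148 RPKM).

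Whether the 9 genes lay above or below the typical gene for their mRNA level depended on how the peaks were summed. The median of log2((summed height + 1)/(RPKM + 1)) was 3.11 over the 9 genes and 2.72 over the 10731 genes, and 6 of the 9 lay above 2.72. After summed height was divided by exonic length, which RPKM already is, the median log2 ratio was 0.79 over the 9 genes and 1.16 over the 10731, and 2 of the 9, Ddx6 and Edc3, lay above 1.16. With the tallest peak in place of the sum the medians were 1.70 over the 9 genes and 1.88 over the 10731. With peaks of at least 50 tags alone they were 2.10 over the 9 genes and 2.67 over all genes, and with peaks of at least 10 tags both were 2.69. Among the 6396 protein-coding genes with an RPKM of 10 to 150 and an exonic peak, the per-length ratio of Ddx6 exceeded that of 69.1% of genes, and that of Lsm1 exceeded 12.6%.

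**Figure D2:**
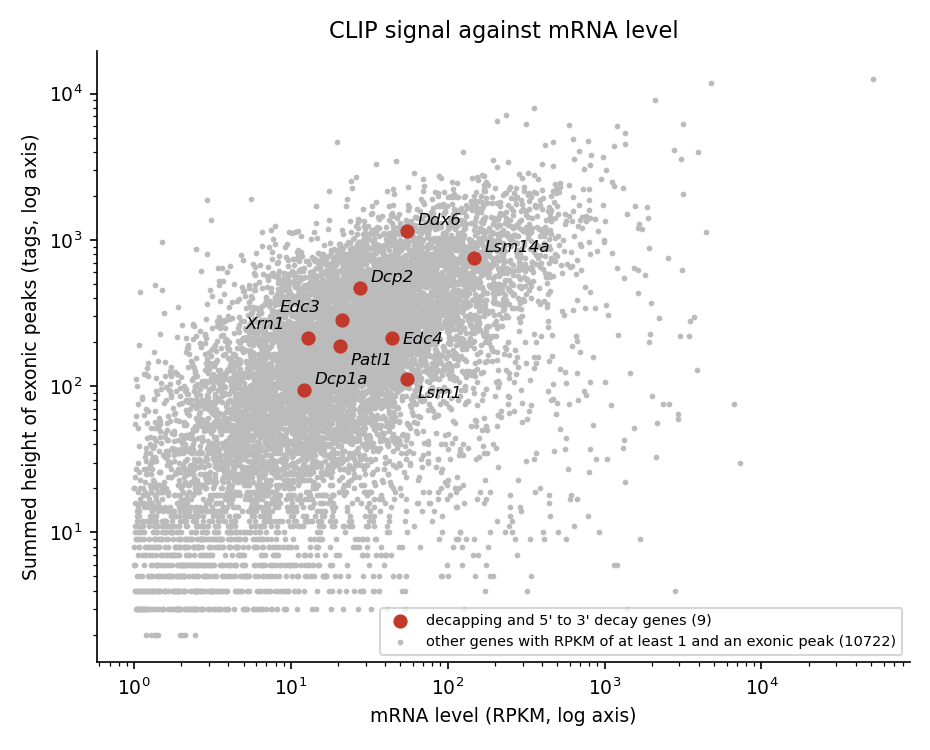
Each point is a gene, with its pooled mRNA level (RPKM, log axis) against the summed height of its exonic PABPC1 peaks (tags, log axis); the 9 decapping and decay genes are in red and all other genes that had an exonic peak and an RPKM of 1 or more in grey. The 9 genes lie within the cloud, with Ddx6 at 1155 tags and 55.1 RPKM and Lsm1 at 112 tags and a similar 54.8 RPKM.

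Deletion sites, single bases missing from part of the sequenced tags, are read as the closest marks of cross-linking, where reverse transcriptase can skip a base. Deletions that arose in other ways were not separated here. A deletion site was found in 4 of the 9 genes, Edc3, Ddx6, Lsm14a and Patl1, against 32.4% of the 12331 genes and 45.2% of the 6430. The 13 sites formed 9 runs within 10 nt and held 288 deletions in all, counted base by base. A tag that lost neighbouring bases is counted at each, so 288 is not a number of separate events. The most deleted runs are printed with 14 nt on either side and the deleted bases in capitals (mm10, 5' to 3' along the mRNA), since their sequence is the nearest the data come to the contact.
Edc3 site near the stop codon (chr9:57748592-57748620, plus strand): gactatctcttgggTttatttcttctgtg
Edc3 second site (chr9:57749398-57749427, plus strand): gttgccctcctcagGTgtatagttggaact
Ddx6 site in the tallest peak (chr9:44638357-44638385, plus strand): aaaaaacaaaatttAaaaaaaaattgatt
Ddx6 middle site (chr9:44639860-44639889, plus strand): gtaacaaaaagatgAAataagtttgtggga
Ddx6 site near the 3' end (chr9:44640532-44640560, plus strand): aaattggctttctgTttaattggcaaatg
Lsm14a site at the 3' end (chr7:34344654-34344682, minus strand): ataaaggccatggaAtaaagagatccaaa
Lsm14a site upstream of it (chr7:34344708-34344736, minus strand): tcttttttgatattTaaactatagtgaaa
Patl1 site (chr19:11943870-11943899, plus strand): aatatttagttaacATatacctctaaaaat
A and T made up 50% to 93.1% of these stretches. In a run of like bases the deleted one cannot be told from its neighbours, as in the A-rich site of Ddx6. The same holds for the pair lost from a short repeat, as in GTGT at the second Edc3 site and ATAT at the Patl1 site.

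The share of covering tags with a deletion was greatest at that A-rich Ddx6 site, with 16 of 24 tags (66.7%, 95% interval 44.7% to 84.4%, exact binomial, counting error only). Those 24 tags are few beside the height of the peak around the site, 342 tags. Whether its deletions came from cross-linking or from the run of A was not tested. The most deletions lay at the Lsm14a 3' end, with 97 of 495 tags (19.6%, 16.2% to 23.4%). The Ddx6 site near the 3' end had 50 of 147 tags deleted (34%, 26.4% to 42.3%), and the Edc3 sites had 20 of 59 (33.9%, 22.1% to 47.4%) and 21 of 60 (35.0%, 23.1% to 48.4%). Over all sites of the series the median share was 12.8% and the median coverage 124 tags. The lowest share among the 13 was the second base of the middle Ddx6 site, with 6 of 162 tags (3.70%, 1.37% to 7.89%).

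**Figure D3:**
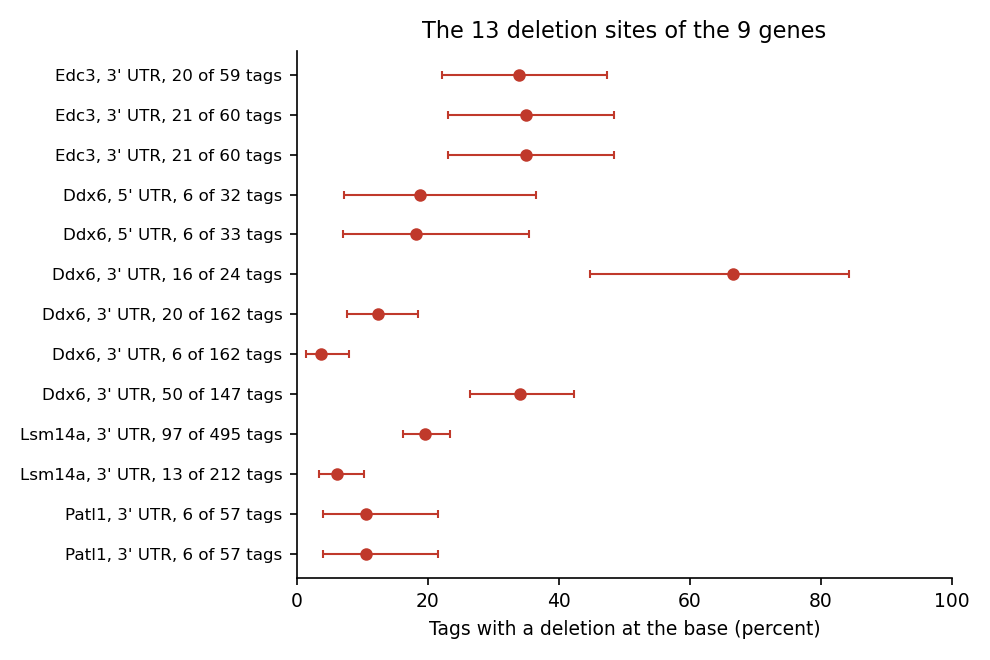
Points show the percent of covering tags that carry a deletion at each of the 13 sites, with exact 95% binomial intervals that cover counting error only. The A-rich site in the tallest Ddx6 peak is highest at 66.7% on 24 tags, and the Lsm14a site with the most covering tags, 495, is at 19.6%.

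All 13 sites lay inside peaks, and 6 lay in their gene's tallest peak. In 3' UTRs lay 11 of the 13 sites (84.6%, 54.6% to 98.1%), against 73.5% of the 11907 sites of the series. The other 2 of the 13 were neighbouring bases in the 5' UTR of Ddx6. All 13 thus lay in exons, while the 11907 include sites outside mRNA exons. Of the series 9723 sites lay in mRNA exons and 8755 in 3' UTRs, so on exons alone its 3' UTR share was the higher. Of the members' 20 exonic peaks of at least 50 tags 7 held a site (35.0%), against 35.3% of 12078 such peaks in the series. Of their 93 lower peaks 1 did (1.08%), against 1.01% of 65600. The poly(A) signal hexamer AATAAA, which directs cleavage and tail addition, lay within 20 nt of 4 of the 13 sites (30.8%), against 31.2% of the 9723 sites in mRNA exons. AAAAAA lay near 1 site and ATATAA near 2, both at the 5' UTR of Ddx6, against 11.9% and 13.1% of the 9723. Matches were searched on the mRNA strand and describe letters, not binding.

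A 3' UTR peak was found in 9 of the 9 genes, against 76.3% of the 12331 and 95.3% of the 6430, and a CDS (coding sequence) peak in 8, against 57.9% and 81.4%. Over the 9 genes, 70 of 113 exonic peaks were in 3' UTRs (61.9%, 52.3% to 70.9%), against 53.5% of the 77678 exonic peaks of the series. CDS held 41 (36.3%), against 40.7%, and 5' UTRs held 2 (1.77%), against 2.51%. Introns held 2 of the 115 peaks in the 9 gene spans (1.74%), against 13.5% of all 90337. The 3' UTRs made up a like share of the exonic length of these genes. The observed 3' UTR share was 1.00 times the share given by length over the 9 genes and 1.23 times over all genes with 75077 peaks in their exons, and it was 1.09 times without Xrn1. By gene the ratio ran from 3.29 for Edc4 down to 0.270 for Xrn1. The lengths merge the annotated 3' UTRs of all basic transcripts of a gene, and in Edc3, Lsm1 and Xrn1 these run far past the last peak. With every 3' UTR taken only up to the edge of its last peak, an extent chosen after the values were seen, the ratio was 1.18 over the 9 genes and 1.34 over all genes. It was then 1.83 for Xrn1 and 1.04 for Lsm1, and Lsm14a was lowest at 0.547. On that extent Xrn1 had 11.2% of its height on 7.30% of its length and Lsm1 69.6% on 48.2%. In both the share of height thus exceeded that of length. Dcp2 stayed at 74.9% on 83.4%. Without its tallest peak, which matches an exon of a short transcript as described below, 93.3% of the Dcp2 height was in the 3' UTR.

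**Figure D4:**
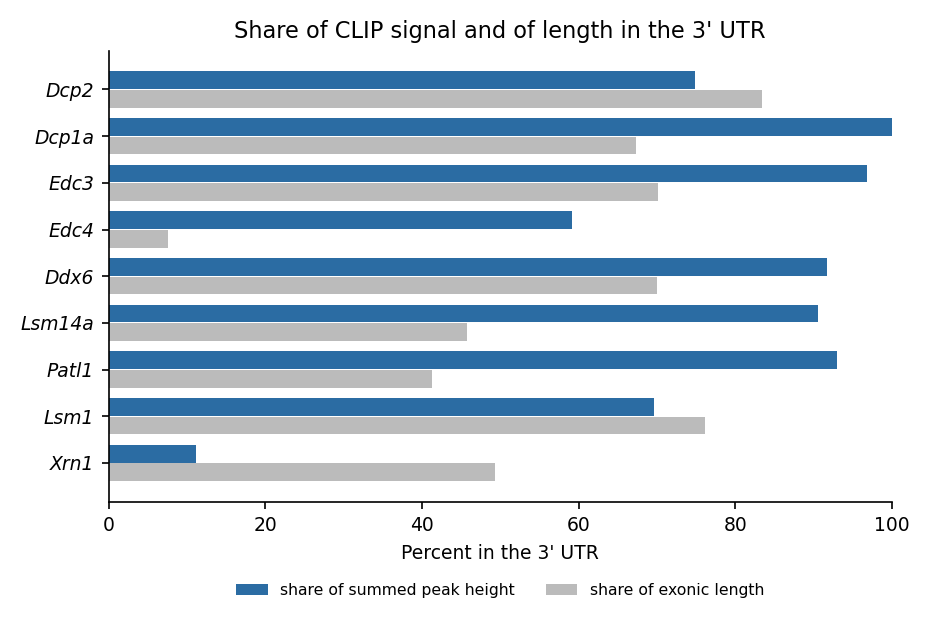
Paired bars give, for each gene, the percent of summed exonic peak height in the 3' UTR (blue) and the percent of exonic length that is annotated 3' UTR (grey). Height exceeds length in 6 genes, most for Edc4 (59.2% of height on 7.59% of length), and falls short of it in Dcp2, Lsm1 and Xrn1 (11.2% on 49.3%). In Lsm1 and Xrn1 the annotated 3' UTR runs far past the last peak, and up to that peak height exceeds length in both. Without the tallest Dcp2 peak, which matches the last exon of a short annotated transcript, 93.3% of the Dcp2 height is in the 3' UTR.

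Dcp2, the Nudix hydrolase that cuts the cap, lies on chromosome 18 and was expressed at 27.6 RPKM. It held 20 exonic peaks with a summed height of 466 tags, a log2 ratio to RPKM of 4.03 and a per-length log2 ratio of 0.93. Its 3' UTR of 7240 nt held 16 of the peaks, of which the tallest had 81, 74 and 57 tags. These lay with their midpoints 1720, 819 and 38 nt before the annotated end, so 79.7% of the 3' UTR height was in its distal part past the midpoint. No deletion site was found in Dcp2.

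The tallest Dcp2 peak was not in the 3' UTR. It had 92 tags over 216 nt and was centred on codon 53 of 423 of the long transcript. The peak coincided with the last exon of a short annotated transcript, which is 398 nt long against 8616 nt for the long one. That exon is 213 nt, the peak began 4 nt before it and ended 1 nt from the short transcript's end, and 64 nt of the peak lay outside the exons of the long transcript. The tallest exonic peak was placed in the CDS for 2 of the 9 genes, Dcp2 and Xrn1, against 8.97% of 9868 protein-coding genes with an exonic peak and 5.36% of the 5507 of these with 3' UTRs over 1000 nt. The poly(A) site of the short transcript was not analysed here.

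Dcp1a, the EVH1-domain partner that activates Dcp2 (ENSMUSG00000021962.9, chr14:30479535-30527063, plus strand), had the lowest RPKM of the 9 at 12.1 and the lowest summed height at 94 tags. All 9 of its exonic peaks were in the 3' UTR of 3757 nt, and its CDS of 1809 nt held none. The tallest had 33 tags with its midpoint 177 nt before the end (chr14:30526846-30526927), and the other 8 had 4 to 11 tags. A peak of 14 tags lay in an intron. The log2 ratio was 2.86 and the per-length ratio 0.45. A processed pseudogene, CR555305.1, matches the transcript at 92.3% identity over 904 nt, so assignment of tags there is uncertain.

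Edc3, a scaffold that stimulates decapping and binds Ddx6 (ENSMUSG00000038957.13, chr9:57708540-57752499, plus strand), was expressed at 21.3 RPKM and held 12 exonic peaks with a summed height of 283 tags. The 3' UTR carried 96.8% of that height. Its 3 tall peaks had 75, 61 and 60 tags with midpoints 20, 927 and 1598 nt past the stop codon, and the other 9 had 4 to 18 tags. The first 2 of these tall peaks held the Edc3 deletion sites printed above. The per-length height of the 3' UTR was 11.6 times that of the CDS, against a median of 6.84 over 6602 genes with peaks in both, and 27.8 times on the 3' UTR up to its last peak, against 8.25. The peak of 75 tags, 295 nt wide, spanned the stop codon and reached 167 nt into the 3' UTR. Its whole height was counted there by its midpoint, so the 96.8% and both ratios rest on that placement. Edc3 shares 584 nt of exons with Clk3 on the opposite strand. No source used here says whether the mRNA-seq counting used strand, so reads of the pair may be mixed in the RPKM.

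Edc4, a large WD40 scaffold that brings Dcp1 and Dcp2 together (ENSMUSG00000036270.16, chr8:105880881-105894908, plus strand), had 4 exonic peaks, the fewest of the 9, at 44.2 RPKM and a summed height of 213 tags. Its 3' UTR is only 363 nt long and held 1 peak of 126 tags (chr8:105892998-105893216), which ended 9 nt before the end. That peak gave 59.2% of the height on 7.59% of the exonic length, and the per-length height of the 3' UTR was 16.8 times that of the CDS. The 3 CDS peaks had 5, 53 and 29 tags. Those of 53 and 29 tags were centred on codons 1314 and 1401 of 1407, near the stop codon. The peak of 29 tags, 185 nt wide, ran past the stop codon into the 3' UTR. Its whole height was counted in the CDS by its midpoint, so the 59.2% and the 16.8 rest on that placement. The log2 ratio was 2.24 and the per-length ratio 0.01.

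Ddx6, a DEAD-box helicase needed for P-body assembly and for translational repression (ENSMUSG00000032097.10, chr9:44604892-44640731, plus strand), carried the most signal. At 55.1 RPKM it had 22 exonic peaks summing to 1155 tags, a log2 ratio of 4.36 and a per-length ratio of 1.77, the highest of the 9 on both scales. Its summed height exceeded that of 96.8% of the 6396 protein-coding genes of RPKM 10 to 150. The 3' UTR of 4250 nt held 16 peaks and 91.8% of the height. The tallest had 342 tags over 398 nt (chr9:44638245-44638642) with its midpoint 2288 nt before the end. The next had 162 tags at 851 nt and 148 tags at 176 nt before the end. The peak at the very end had 20 tags.

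Ddx6 also held 6 of the 13 deletion sites and the only 5' UTR sites. The 5' UTR peak had 34 tags over 67 nt (chr9:44607127-44607193), and its neighbouring bases were deleted in 6 of 32 tags (18.8%, 7.21% to 36.4%) and 6 of 33 tags. The A and T listed as deleted begin an ATATAA hexamer, but which pair of its ATAT repeat was lost cannot be told.
Ddx6 5' UTR site (chr9:44607129-44607158, plus strand): gtgagtgaattcagATataattcaagcttg
A 5' UTR peak was found in 2 of the 9 genes, Ddx6 and Dcp2, against 11.7% of the 12331 genes and 16% of the 6430. The Dcp2 one had 10 tags. A processed pseudogene of Ddx6, Gm13410, matches it at 94.5% identity over 1218 nt and was listed at 12.97 RPKM, so reads in that stretch may be split between them.

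Lsm14a, an LSM and FDF domain protein that binds Ddx6 and represses translation (ENSMUSG00000066568.12, chr7:34344646-34393315, minus strand), had the highest mRNA level, 148 RPKM, which ranked 923 of 18349. Its 12 exonic peaks summed to 755 tags. The last peak had 501 tags over 173 nt (chr7:34344632-34344804), held the deletion site with 97 deletions 22 nt before the annotated end, and ran 14 nt past that end. Upstream of it a single broad peak of 137 tags covered 1036 nt of the 3' UTR, and 9 low peaks of 4 to 14 tags lay in the CDS. The log2 ratio was 2.34 and the per-length ratio 0.79.

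Patl1, which bridges the LSM ring and the decapping enzyme (ENSMUSG00000046139.8, chr19:11912399-11945091, plus strand), was expressed at 20.7 RPKM with 13 exonic peaks summing to 187 tags. Its tallest peak had 61 tags over 57 nt (chr19:11943870-11943926), 1193 nt before the end, and held both of its deletion sites, each in 6 of 57 tags (10.5%, 3.96% to 21.5%). A peak of 31 tags lay at the end. The 3' UTR carried 93.0% of the height on 41.2% of the length, and its per-length height was 17.8 times that of the CDS. An intron held a further peak of 5 tags.

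Lsm1, the subunit that defines the cytoplasmic Lsm1 to Lsm7 ring on shortened tails (ENSMUSG00000037296.7, chr8:25785288-25803975, plus strand), stood lowest relative to its mRNA. At 54.8 RPKM, close to Ddx6, it had 6 exonic peaks summing to 112 tags, a log2 ratio of 1.02 and a per-length ratio of -0.37. Its log2 ratio exceeded that of 10.2% of the 6396 genes of similar RPKM. The tallest peak had 63 tags over 291 nt (chr8:25802248-25802538) and lay 1582 nt before the farthest annotated end. The other 5 had 6 to 21 tags, and the 21 tags lay at codon 9 of 134. No deletion site was found.

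Xrn1, the main cytoplasmic 5' to 3' exonuclease (ENSMUSG00000032410.13, chr9:95954760-96057803, plus strand), was the only gene of the 9 with most of its peak height in the CDS. At 12.9 RPKM it had 15 exonic peaks summing to 215 tags, and 13 of them, with 88.8% of the height, were in the CDS. The tallest had 60 tags over 49 nt at codon 1578 of 1724 (chr9:96051588-96051636), followed by 47 tags at codon 1003 and 35 tags at codon 642. The other 10 CDS peaks had 4 to 10 tags, and the 2 peaks in the 3' UTR had 13 and 11. The per-length height of the whole annotated 3' UTR was 0.126 times that of the CDS, and 0.954% of the 6602 genes had a lower ratio. Most of that 3' UTR lay past the last peak, whose edge was 242 nt past the stop codon of the transcript with the longest 3' UTR. Up to that edge the 3' UTR pieces of all basic transcripts came to 418 nt. On these 418 nt the direction turned: the ratio was 1.56, and 11.4% of the genes, measured alike, had a lower one. The ratio for Lsm1 was 0.284 on the whole 3' UTR and 0.974 up to its last peak. With its transcripts merged and 3' UTR placed first, Lsm1 had 2028 nt of 3' UTR and 251 nt of CDS. Its coding sequence has 134 codons. A peak of 8 tags, centred 15 nt before the stop codon of its main transcript, counted as 3' UTR. The Lsm1 ratio on single transcripts was not tested. For Dcp2 the ratio was 0.590 with either extent, but 4.21 without the tall peak that matches the short transcript. On whole 3' UTRs it ran from 5.94 to 17.8 for the other 5 genes with peaks in both regions. Xrn1 shares 199 nt of exons with the antisense gene C78334. No deletion site was found.

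The 3' edge of the last 3' UTR peak fell near a poly(A) signal in most of these genes, a pattern that was examined after the values had been seen. The edge lay 0 to 40 nt past an AATAAA or ATTAAA in 8 of the 9 genes, against 76.1% of 9168 protein-coding genes with an RPKM of 1 or more and a 3' UTR peak. Of all positions in the members' 3' UTRs 4.08% lay that close past a signal, and of those of the 9168 genes 5.66% did. Those positions are not a like base where the edge is at an annotated end. Edges past the farthest end were set to that end. In Dcp2, Edc4, Ddx6, Lsm14a and Patl1 the edge lay 0 to 9 nt before it, and the median over the 9168 genes was 1 nt. For such genes a signal at the edge cannot be told from a signal at the annotated end. Xrn1 shares this limit: its last edge, 242 nt past the stop codon, lay close to the end of a shorter transcript at 218 nt. An AATAAA lies at 208 to 213 nt, before that end, and the signal printed below lies at 231 to 236 nt, past it. The signals are shown in capitals (mm10, mRNA strand, up to 12 nt on either side). In 3 genes they lie far inside the longest annotated 3' UTR.
Edc3 (chr9:57750121-57750150, plus strand): caaagccagcacAATAAAgtgacagaaacc
Edc4 (chr8:105893186-105893215, plus strand): aaaggcttttggAATAAAagaaagtatgtg
Ddx6 (chr9:44640697-44640726, plus strand): ttaatttatctcAATAAAagcccactggaa
Lsm14a (chr7:34344652-34344681, minus strand): taaaggccatggAATAAAgagatccaaaga
Patl1 (chr19:11945064-11945091, plus strand): cactttgctctgAATAAAttcactattt
Lsm1 (chr8:25802494-25802523, plus strand): catttacttgtaAATAAAaaatgattctca
Xrn1 (chr9:96053028-96053057, plus strand): aaaaaaagaaaaATTAAAccttgtattaaa
The signal ended 30 nt before the last edge in Edc3, 13 nt in Edc4, 16 nt in Ddx6, 18 nt in Lsm14a, 10 nt in Patl1, 27 nt in Lsm1 and 6 nt in Xrn1. In Dcp2 it ended 19 nt before the edge. The exception was Dcp1a, whose last peak stopped 136 nt before the end and whose nearest AATAAA ended 103 nt past that edge.

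In 3 of the 9 genes the last peak ended over 1000 nt before the farthest annotated end, against 8.61% of the 9168 genes. Of the 1383 of these with 3' UTRs over 3000 nt, 29.3% did so. Among the 9 genes 5 have 3' UTRs over 3000 nt, and of these Edc3 and Xrn1 did so. The 3' UTR of Lsm1, the third gene, is shorter. Edc3 had no peak in the last 2331 nt, which are 58.2% of its 4004 nt 3' UTR. Lsm1 had none in the last 1437 nt, 76.6% of 1877 nt. Xrn1 had none in the last 4752 nt, 95.2% of the 4994 nt of its longest annotated 3' UTR, while a shorter annotated transcript has a 3' UTR of 218 nt that the peaks spanned. Beyond the last peak lay 1 further signal in Edc3, 1 in Lsm1 and 5 in Xrn1. Of the 789 genes whose last peak ended this far before the end, 53.9% had a signal at the edge. The deposited data used here do not place RNA ends, so whether transcripts ended at these edges was not tested.

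**Figure D5:**
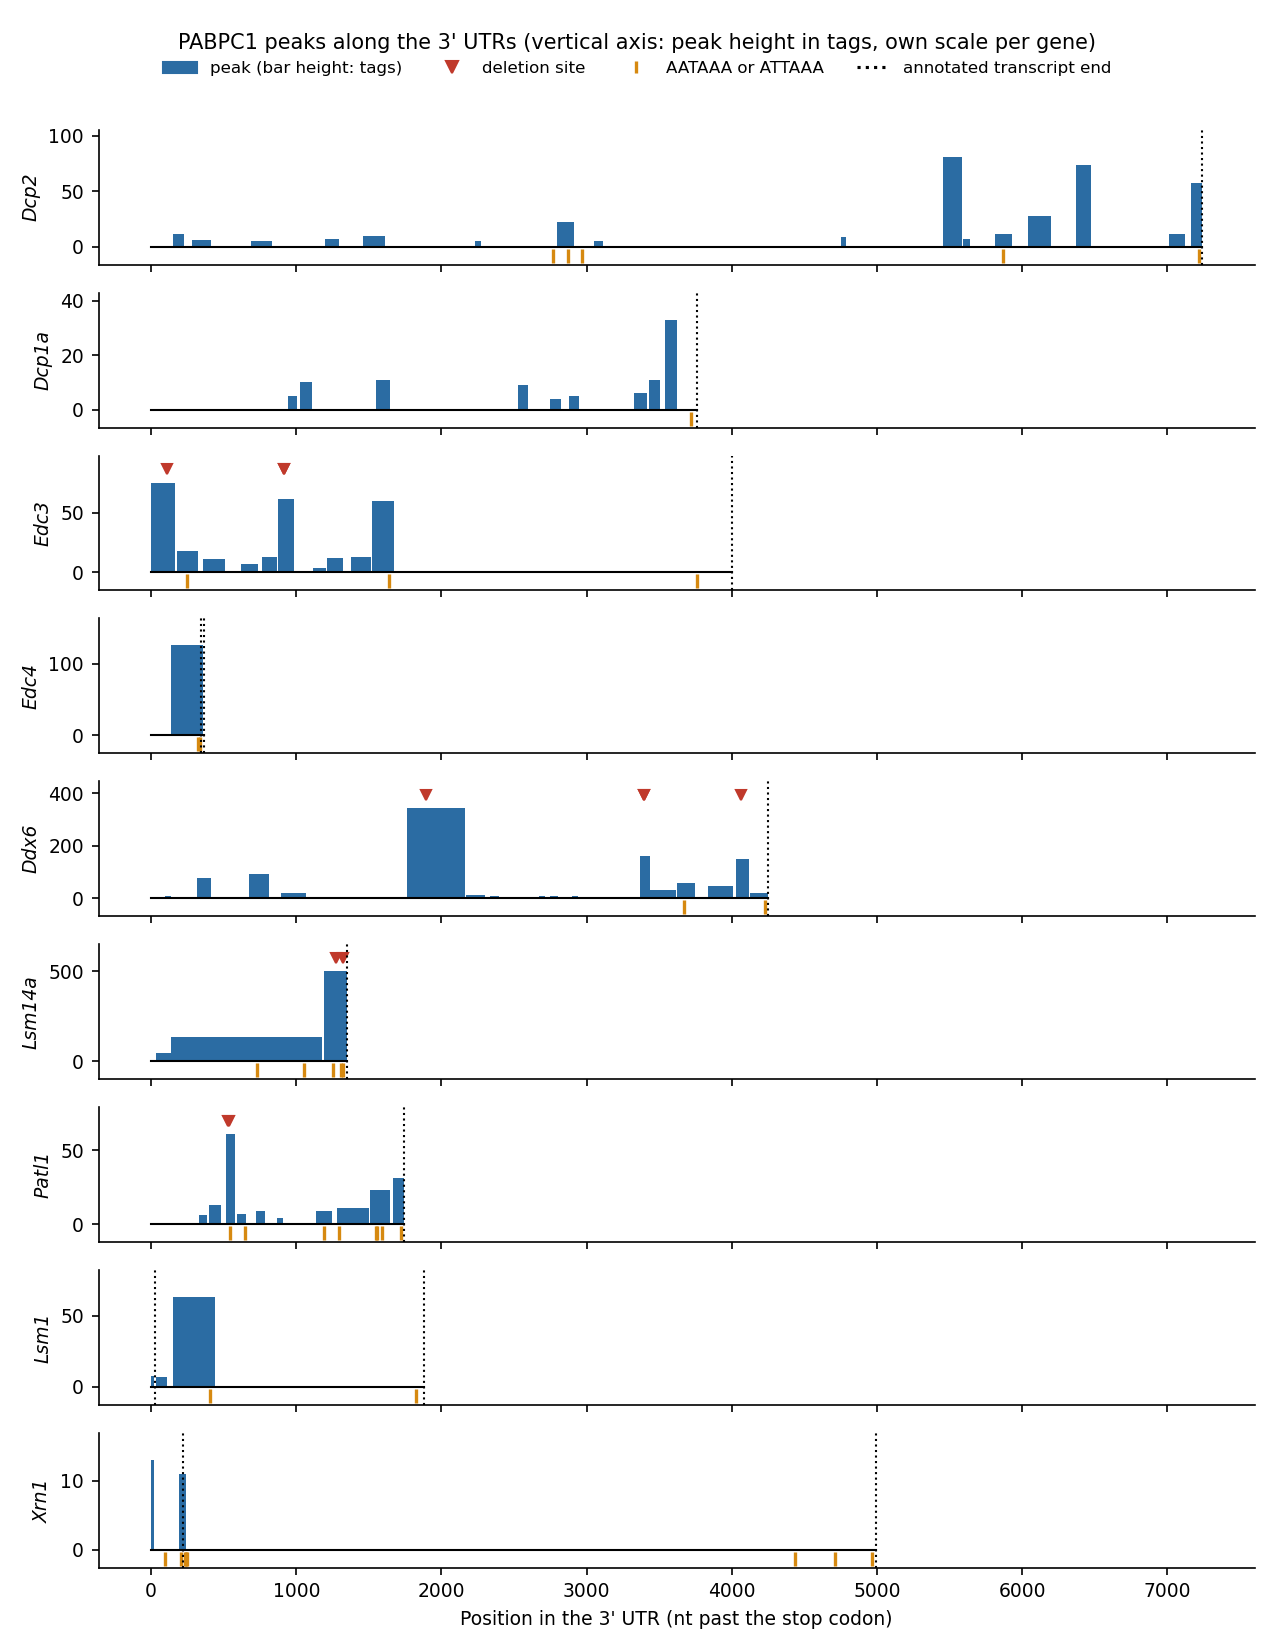
Each row is the 3' UTR of a gene in nt past the stop codon (shared horizontal axis), with peaks as bars whose height is in tags on the gene's own scale, deletion sites as red triangles, AATAAA or ATTAAA as orange ticks and annotated transcript ends as dotted lines. Peaks run to the annotated end in Dcp2, Edc4, Ddx6, Lsm14a and Patl1, and stop 2331 nt before the farthest end in Edc3, 1437 nt in Lsm1 and 4752 nt in Xrn1.

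The 3' UTRs of these genes were long, and distances from their peaks to annotated ends were long as well. The median annotated 3' UTR length behind a 3' UTR peak was 4004 nt for the members and 2235 nt for the series. The median distance from midpoint to the next annotated end was 1428.5 nt for the members' 70 peaks and 544 nt for the 41534 peaks of the series, and 6 of 70 (8.57%) lay within 100 nt of an end, against 19.5%. In 3' UTRs over 3000 nt the median distance was 2160 nt for 53 peaks of 5 members and 1388 nt for 15118 peaks of the series, and 3 of 53 (5.66%, 1.18% to 15.7%) lay within 100 nt, against 11.5%. Distances in Edc3 and Lsm1 run to far ends that their peaks did not reach. The median height of the 70 peaks was 11 tags, against 13 tags in the series. One of the signals AATAAA and ATTAAA was found no more than 25 nt from the midpoint in 11 of 70 (15.7%, 8.11% to 26.4%), against 15.9% of the 41534 peaks and 5.08% of all positions in the members' 3' UTRs.

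Other genes of cap removal and RNA decay were followed as a list of 33. It held the rest of the LSM ring, further decapping cofactors, exonucleases and cap enzymes. The exosome with its SKI helper complex, which degrade RNA from the 3' end, was also included. Of the 33 genes 32 were listed with an RPKM, each with an RPKM of at least 1. Exosc6, an exosome subunit with a summed height of 412 tags, was not listed. An exonic peak was found in 32 of 32, against 87% of the 12331 genes and 99.5% of the 6430. A deletion site was found in 12 of 32, against 32.4% and 45.2%. The median RPKM of the 32 was 32.5, though some lay outside the range of 10 to 150 that holds the 6430. The median log2 ratio was 2.57 and the median per-length ratio 1.54, with 16 and 20 of 32 above the medians of all 10731 genes. The per-length median was 0.79 for the 9 core genes, 2.85 for the 6 LSM ring genes, 2.16 for the 7 decapping cofactors, 1.33 for the 5 exonucleases and cap enzymes and 0.82 for the 14 listed exosome and SKI genes.

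The highest log2 ratios on this list were those of Lsm6, a ring subunit, at 5.54 with a peak of 1145 tags in its 3' UTR, Dcp1b, a decapping cofactor, at 5.35 with a peak of 235 tags, and Pnrc1, a cofactor that binds Dcp1a, at 3.89. The lowest were those of Exosc7, an exosome subunit, at -0.53, Ttc37, the SKI3 homolog, at -0.32, and Lsm5, a ring subunit, at -0.02. Dcp1a had 94 tags at 12.1 RPKM and its paralog Dcp1b 248 tags at 5.12 RPKM. Xrn2, the nuclear counterpart of Xrn1, had the most deletion sites of the list with 8, and Exosc3, an exosome cap subunit, had 5. Of the 20 exonic peaks of Xrn2 19 were in the CDS, but its tallest, of 312 tags, was in the 3' UTR. The 3' UTR held 11.2% of the exonic height in Xrn1 and 64.3% in Xrn2.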

How the data were processed

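PABPC1 CLIP-seq peaks and deletion sites (3 samples) and mRNA levels (2 samples) of MEL cells were used as deposited. Each was pooled by the authors, per the file terms in the labels, and depth per library was not analysed here. The peak list gives a whole-number score per peak, the authors' own value, read as height in tags. The deletion list gives the authors' count of tags with a deletion and of covering tags, and the mRNA file gives the authors' RPKM. Per the submitters' processing notes the build was mm10 and the tools included HTSeq 0.6.0, TopHat2 2.0.12, Novoalign 3.02.02 and cutadapt 1.4.2, with no role stated. The peak caller and thresholds are not given in the sources used here.

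Peaks (by midpoint) and sites were placed by strand on GENCODE mouse release M21 basic transcripts with Python 3.11.15, pandas 2.3.3 and bedtools 2.31.1, in the order 3' UTR, 5' UTR, CDS, non-coding exon, intron. Placement was tested on simulated data. Sequences are those of GENCODE transcripts; copies were sought with blastn 2.17.0 (at least 90% identity over 500 nt). Intervals are exact Clopper-Pearson at 95% (scipy 1.17.1). PCR reads are not independent molecules, so intervals cover counting error only. The log2 ratio uses a pseudocount of 1 and understates the ratio of low genes. All 9 genes are named, each with its tallest peaks by region and up to 3 most deleted sites, and of the pathway list the 3 highest and lowest log2 ratios and the 2 genes with most sites. The last-peak edges and the short Dcp2 transcript were looked at after values were seen. The members and lists were chosen with earlier results of these data known, so no p-value is given.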

Additional observations from a re-analysis of the deposited data

How the results depend on the processing

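Of 37 alternatives over 8 results 29 kept the value near the main one, 5 moved it and 3 turned its side of the all-gene median. The members' median log2 ratio of height to RPKM, 3.11 against 2.72 over all genes, was 2.69 against 2.69 with peaks of at least 10 tags (lower in the third decimal), 2.10 against 2.67 with peaks of at least 50, and 1.70 against 1.88 with the tallest peak. The per-length median, below that of all genes throughout, was -0.23 against 1.05 with peaks of at least 50. The 3' UTR share of exonic peaks was 75% with peaks of at least 10 tags, 85.0% with at least 50 and 73.7% with all annotated transcripts. The 3' UTR share of deletion sites was 100% (10 of 10) at 50 or more covering tags, a setting at which the share over the series was not computed. Minimum heights and coverage keep fewer peaks and sites, and all transcripts place 84 of 114 peaks in 3' UTRs in place of 70 of 113; the causes were not tested further. The ratio of 3' UTR to CDS height per length turned to 1.56 for Xrn1 with 3' UTRs up to the last peak edge, and to 4.21 for Dcp2 without its tallest peak. For single genes 31 of 45 alternatives stayed near the main log2 ratio and 14 moved. The count of 8 of 9 genes with a signal before the last edge held at limits of 30 and 50 nt and with peaks of at least 10, settings that were chosen after seeing the data, as were the run without Xrn1, the RPKM range of 10 to 150, the 3' UTR extent and the run without the Dcp2 peak. Leaving out replicates could not be run. No paired analysis was possible because each list holds 1 pooled value for its samples. Low peaks, with a median of 9 tags in the series, carry large counting error.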
